A study of Mus musculus with 8 samples.

Results

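The 9 genes Kcnn2, Kcnd2, Kcnd3, Kcnip2, Kcnj2, Kcnj3, Kcnq1, Kcnh2 and Hcn4, taken as cardiac sodium and potassium channel genes, were followed in single-nucleus RNA-seq of mouse hearts. They were taken by name, and all 9 were found among the 32285 genes of the count tables. Among them 8 encode potassium channel subunits and 1, Hcn4, encodes a cation channel that carries sodium and potassium. None encodes a voltage-gated sodium channel. The hearts were taken whole from male mice aged 9 weeks, 4 WT and 4 Taz-KO, then minced and cryopreserved, and 1 library of nuclei was made per mouse with a 3' single-cell kit. Taz is the gene of Tafazzin, a mitochondrial enzyme of the phospholipid cardiolipin, and is mutated in Barth Syndrome. The Taz-KO mice carried the Tafazzin knockout and the WT mice did not, and no other allele or treatment is named in the labels. Strain, litters and which of the mice were handled together are not given in the sources used here. The mouse was the replicate throughout, and mice are called by the numbers in their labels, 4686, 4909, 5355 and 5356 for WT and 4685, 4910, 5300 and 5301 for Taz-KO.

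Potassium channels end the cardiac action potential and hold the resting potential, and each phase has its own channels. In the mouse heart the fast transient outward current, carried by channels of Kcnd2 and Kcnd3 subunits with the accessory subunit of Kcnip2, dominates early repolarization of ventricular cells. Kcnj2 encodes a main pore subunit of the inward rectifier current that sets the resting potential, Kcnj3 a subunit of the acetylcholine-gated channel that is best known from atrial and nodal cells, and Kcnq1 and Kcnh2 pore subunits of the slow and rapid delayed rectifiers. Kcnn2 encodes a calcium-activated potassium channel, and Hcn4 the main channel of the pacemaker current of the sinoatrial node.

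The 8 libraries held between 20025456 and 348080773 UMIs and 169193 barcodes, of which 151264 were kept and are called nuclei here. The study kept fewer nuclei from these libraries after its own filters, so not every barcode kept here need be an intact nucleus. The largest cluster, left unnamed, held 19283 of them, with a median of 26.0% mitochondrial UMIs. Taz-KO mice 4685 and 5301 gave 3492 and 5571 barcodes and stood apart from the other 6 libraries, with 21190 or more. Mitochondrial genes took 1.57% to 23.7% of the UMIs of a library, and a pair of libraries shared at most 294 barcodes and at most 1.04% of the smaller library. Clusters built without channel genes and named from markers gave 27623 ventricular cardiomyocyte-like nuclei, 97.4% of the 28348 cardiomyocyte-like nuclei, with 4800150 to 97311561 UMIs per mouse. The other cardiomyocyte-like nuclei were 644 atrial-like and 81 conduction-like nuclei. Among cardiomyocyte-like clusters the atrial or conduction name needed a marker score of at least 2.0. The ventricular name needed only a ventricular score above the atrial one. Cluster 11, with 766 WT and 2978 Taz-KO nuclei, was named ventricular-like at a ventricular score of -0.144 and an atrial score of -1.10. Clusters with markers of several classes or of none stayed unnamed, which left out 17.7% to 27.3% of the nuclei of a WT mouse and 17.9% to 62.7% of those of a Taz-KO mouse, the most in mouse 4685. In ventricular-like nuclei of WT mice the ventricular markers Irx4 (16.6 CPM, UMIs per 1000000 non-mitochondrial UMIs of the class) and Hey2 (12.2 CPM) lay above the atrial-like nuclei (1.76 and 4.04 CPM) and the fibroblast-like nuclei (3.55 and 4.98 CPM). The cytoplasmic transcript Myl2 (2030.1 CPM) did not separate them from fibroblast-like nuclei (2559 CPM), where Ttn was also found (3317 CPM, against 25702 CPM in ventricular-like nuclei), so RNA of cardiomyocytes was measured in other classes too. Taz itself gave 53.7, 49.6, 55.0 and 48.6 CPM in ventricular-like nuclei of the WT mice, against 44.6, 38.1, 28.5 and 31.4 CPM in Taz-KO mice, with no overlap (log2 fold change -0.65, SE 0.18, adjusted p = 0.0296, edgeR's quasi-likelihood test). In all cardiomyocyte-like nuclei together this call was lost with an assumed share of ambient RNA subtracted (adjusted p = 0.0839, edgeR). It was also lost without WT mouse 4686, 5355 or 5356 or Taz-KO mouse 5301 (adjusted p from 0.0523 to 0.0678, edgeR). Reads of the 3' end need not cover the deleted part of a gene, so this difference checks the labels only in part.

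In ventricular cardiomyocyte-like nuclei 6 of the 9 genes were lower in Taz-KO and none was higher, by edgeR's quasi-likelihood test at an adjusted p under 0.05 over 18326 genes, a filter on low counts having kept all 9. The 6 were Kcnj2, Kcnj3, Hcn4, Kcnd2, Kcnq1 and Kcnn2, and their fitted levels were 1.96-fold (Kcnq1) to 6.91-fold (Hcn4) lower. Over all genes tested the same call was made lower for 6.74% and higher for 9.30%, or 16.0% in either direction. For 5 of the 9 genes every Taz-KO mouse lay below every WT mouse, as for 7.02% of all genes tested. The median log2 fold change was -1.06 over the 9 genes and -0.02 over all genes. Kcnd3, Kcnip2 and Kcnh2 did not pass the test, though Kcnh2 did with DESeq2 (adjusted p = 0.0343), which called 7 of the 9 genes where it called 16.6% of all genes. Kcnd2 and Kcnj3 are also in the study's own list of changed genes, chosen on these same mice, so their direction here is not independent evidence of it. All 9 genes were chosen with earlier results of these data known. The counts and the median above are therefore no independent evidence either.

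**Figure D1:**
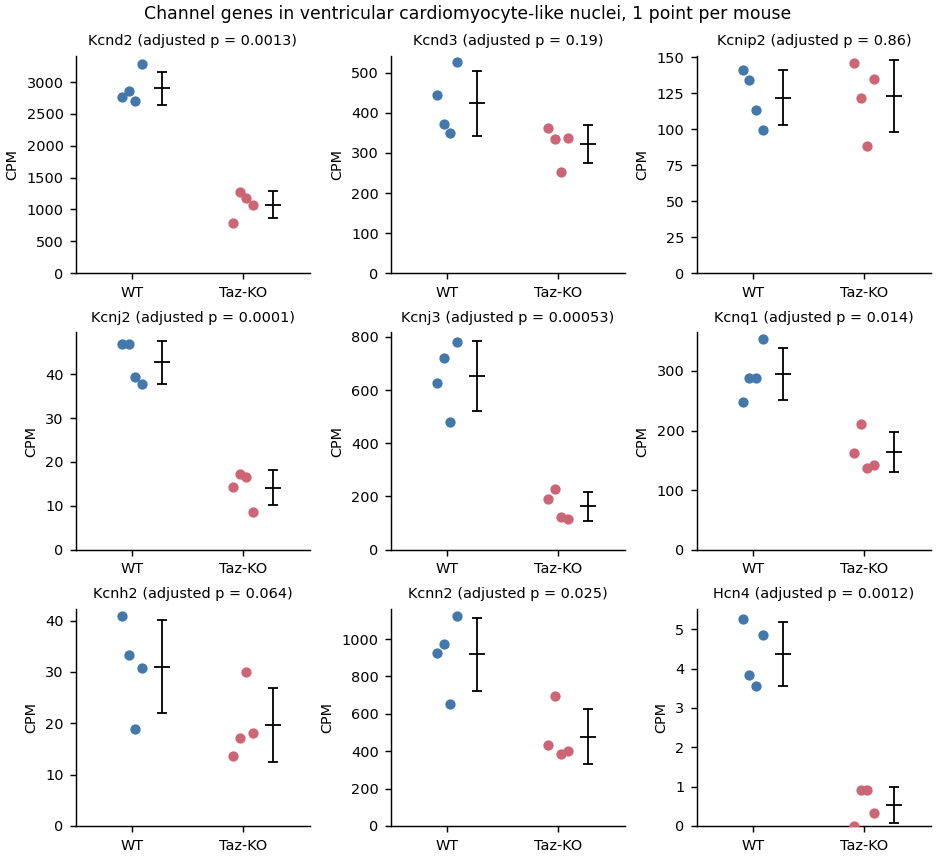
Level of each of the 9 genes in ventricular cardiomyocyte-like nuclei in CPM, with 1 point per mouse, the horizontal bar at the mean and the whiskers at 1 SD (n = 4 WT and 4 Taz-KO mice). The Taz-KO mice lie below all WT mice for Kcnd2, Kcnj2, Kcnj3, Kcnq1 and Hcn4, the groups overlap for the other 4 genes, and the adjusted p of edgeR's quasi-likelihood test stands above each panel.

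The sequence around the start of transcription is shown for 4 genes that fell with no overlap between mice, and for Kcnip2, which did not pass the test, so that they can be set side by side. RefSeq's table of promoters (GRCm38.p6, 250 bases before to 50 after the start) held 7 of the 9 genes and had no entry matched to Kcnq1 and Kcnn2. Capitals mark matches on either strand to the GC box GGGCGG, the E-box CACGTG and TGATGNAA, a composite C/EBP-ATF motif of the integrated stress response, and lower case is the rest.
Kcnd2, chr6:21215096-21215395, plus strand: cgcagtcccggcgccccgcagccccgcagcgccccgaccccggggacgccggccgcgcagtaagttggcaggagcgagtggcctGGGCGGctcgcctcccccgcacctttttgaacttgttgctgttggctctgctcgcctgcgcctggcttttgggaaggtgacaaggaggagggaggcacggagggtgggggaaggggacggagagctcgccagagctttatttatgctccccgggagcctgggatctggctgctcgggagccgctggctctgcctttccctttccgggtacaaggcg
Kcnj2, chr11:111065914-111066213, plus strand: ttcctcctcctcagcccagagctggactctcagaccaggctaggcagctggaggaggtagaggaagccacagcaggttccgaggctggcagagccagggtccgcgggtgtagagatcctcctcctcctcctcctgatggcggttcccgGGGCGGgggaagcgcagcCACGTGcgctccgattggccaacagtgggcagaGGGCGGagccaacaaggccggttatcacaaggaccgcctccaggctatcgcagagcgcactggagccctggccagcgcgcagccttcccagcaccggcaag
Kcnj3, chr2:55435720-55436019, plus strand: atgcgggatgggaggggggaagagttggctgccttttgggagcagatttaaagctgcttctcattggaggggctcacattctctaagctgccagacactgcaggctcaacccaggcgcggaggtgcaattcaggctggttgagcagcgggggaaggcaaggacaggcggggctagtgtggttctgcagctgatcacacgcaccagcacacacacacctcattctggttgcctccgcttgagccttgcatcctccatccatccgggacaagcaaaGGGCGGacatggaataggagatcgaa
Hcn4, chr9:58822699-58822998, plus strand: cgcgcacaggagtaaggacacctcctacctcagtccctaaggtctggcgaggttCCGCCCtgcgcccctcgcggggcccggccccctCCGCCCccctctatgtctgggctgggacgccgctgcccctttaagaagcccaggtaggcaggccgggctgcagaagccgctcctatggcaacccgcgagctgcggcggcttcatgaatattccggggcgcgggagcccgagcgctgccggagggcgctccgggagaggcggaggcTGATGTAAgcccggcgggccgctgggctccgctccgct
Kcnip2, chr19:45816014-45816313, minus strand: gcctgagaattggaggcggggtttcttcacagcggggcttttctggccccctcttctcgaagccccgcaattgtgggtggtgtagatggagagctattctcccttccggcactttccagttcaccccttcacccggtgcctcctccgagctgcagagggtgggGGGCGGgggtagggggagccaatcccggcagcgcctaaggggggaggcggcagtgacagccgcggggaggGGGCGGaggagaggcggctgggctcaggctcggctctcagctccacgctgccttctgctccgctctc
These windows are rich in G and C, from 57.67% in Kcnj3 to 71.67% in Hcn4, with 67.00% in Kcnip2. A GC box was found in all 5 windows, 1 each in Kcnd2 and Kcnj3 and 2 each in Kcnj2, Hcn4 and Kcnip2, against 35.66% of all 32851 promoters with at least 1. The E-box was found in Kcnj2 alone of the 5 (7.15% of all promoters), and the composite motif in Hcn4 alone (3.969%). The TATA box TATAAA, found in 13.62% of all promoters, was in none of the 5. The windows of Kcnd3 and Kcnh2, which did not pass the test either, held 0 and 3 GC boxes and none of the other motifs. Windows follow the starts of RefSeq, which for some genes differ from the gene positions given below, so that the windows of Kcnd2, Kcnd3 and Hcn4 end before the gene begins there and that of Kcnh2 lies inside the gene.

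Kcnd2, which encodes the pore subunit Kv4.2 of the fast transient outward channel, spans chr6:21215503-21729805 (ENSMUSG00000060882). Positions of genes are those of GENCODE on GRCm38, the build of the count tables, and cover exons and introns, whose reads were both counted. The level of Kcnd2 was 2766, 2867, 2699 and 3283 CPM in ventricular-like nuclei of the WT mice and 784, 1273, 1185 and 1069 CPM in those of the Taz-KO mice. Each Taz-KO mouse lay far below the lowest WT mouse, and the fitted level was 2.93-fold lower (log2 fold change -1.55, SE 0.24, adjusted p = 0.00127, edgeR). Kcnd3 (chr3:105452330-105674002, ENSMUSG00000040896) encodes Kv4.3, the other pore subunit of this current. It was at 446, 372, 349 and 528 CPM in WT and 363, 335, 252 and 337 CPM in Taz-KO mice, groups that overlapped, and its log2 fold change of -0.52 (95% interval -1.06 to 0.02) had an adjusted p of 0.193 in edgeR. Kcnip2 (chr19:45791839-45816061, ENSMUSG00000025221) encodes KChIP2, the calcium-binding accessory subunit that raises the surface density of Kv4 channels. Its level of 141, 135, 113 and 99.5 CPM in WT and 146, 122, 88.2 and 135 CPM in Taz-KO mice covered the same range, with a log2 fold change of -0.08 (95% interval -0.56 to 0.40, adjusted p = 0.862 in edgeR). Of the genes of the fast transient outward current, the test was thus passed by Kcnd2 alone.

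Kcnj2 (chr11:111066164-111076821, ENSMUSG00000041695), which encodes Kir2.1 of the inward rectifier, was measured at 47.0, 46.9, 39.5 and 37.7 CPM in the WT mice. The Taz-KO mice gave 14.4, 17.2, 16.5 and 8.51 CPM, and the highest of them was well below the lowest WT mouse. The fitted level was 3.29-fold lower in Taz-KO (log2 fold change -1.72, SE 0.18, adjusted p = 0.000103, edgeR), the lowest adjusted p of the 9 genes. Kcnj3 (chr2:55435970-55598145, ENSMUSG00000026824) encodes Kir3.1, which forms the acetylcholine-gated channel with the product of Kcnj5. Its level was 626, 722, 479.9 and 779.9 CPM in the WT and 190.0, 228, 124 and 114 CPM in the Taz-KO mice, again with a wide gap between groups. The fitted level was 4.35-fold lower (log2 fold change -2.12, SE 0.29, adjusted p = 0.000529, edgeR). Its partner Kcnj5, at 38.7 ± 3.65 CPM in WT and 45.7 ± 0.762 CPM in Taz-KO mice (SD, n = 4 each), did not pass the test (log2 fold change 0.12, adjusted p = 0.668, edgeR). Every Taz-KO mouse lay above every WT mouse for Kcnj5. The share of all genes for which this held is not given, so nothing is read from it.

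Kcnq1 (chr7:143106362-143427042, ENSMUSG00000009545), the pore subunit of the slow delayed rectifier, was at 248, 288, 288 and 354 CPM in WT and 163, 211, 138 and 142 CPM in Taz-KO mice. The lowest WT mouse was above the highest Taz-KO mouse, and the fitted level was 1.96-fold lower in Taz-KO (log2 fold change -0.97, SE 0.23, adjusted p = 0.0140, edgeR). Without the 2 shallow libraries, Taz-KO mice 4685 and 5301, the log2 fold change was -0.92 and the adjusted p 0.0908. The imprinted antisense transcript Kcnq1ot1 lies within Kcnq1 on the other strand and moved the other way, from 259, 211, 281 and 263 CPM in WT to 536, 462, 508 and 671 CPM in Taz-KO mice (log2 fold change 1.00, adjusted p = 0.0115, edgeR). Whether the counting used the strand is not given in the sources used here, so reads of the 2 genes may not be fully told apart. Kcnh2 (chr5:24319589-24351604, ENSMUSG00000038319), the pore subunit of the rapid delayed rectifier, was at 40.9, 33.4, 19.0 and 30.8 CPM in WT and 13.5, 17.2, 30.1 and 18.0 CPM in Taz-KO mice. WT mouse 5355 lay among the Taz-KO mice and Taz-KO mouse 5300 among the WT mice, and the log2 fold change of -0.79 (SE 0.26) had an adjusted p of 0.0638 in edgeR. An antisense gene, Gm15589, overlaps Kcnh2, with the same limit. Other antisense genes overlap Kcnn2 (A330093E20Rik), Kcnd3 (Kcnd3os) and Kcnq1 (Gm28821 and 4933417O13Rik), to which the limit applies too.

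Kcnn2 (chr18:45268860-45686024, ENSMUSG00000054477), the calcium-activated channel SK2, was at 924, 976, 653 and 1122 CPM in WT and 433, 694, 386 and 398 CPM in Taz-KO mice. The groups overlapped, since Taz-KO mouse 4910 lay above WT mouse 5355, and the fitted level was 2.09-fold lower (log2 fold change -1.06, SE 0.28, adjusted p = 0.0251, edgeR). The call was lost when WT mouse 4909 or 5356 or Taz-KO mouse 4685 or 5300 was left out, with adjusted p from 0.0511 to 0.0694, and without both shallow libraries (adjusted p = 0.159). Hcn4 (chr9:58823412-58863175, ENSMUSG00000032338) was sparse, with 256, 252, 131 and 201 UMIs in ventricular-like nuclei of the WT mice and 0, 89, 33 and 3 in those of the Taz-KO mice. These counts gave 5.26, 3.85, 3.56 and 4.84 CPM in WT and 0, 0.915, 0.912 and 0.332 CPM in Taz-KO mice, with a log2 fold change of -2.79 (SE 0.43, adjusted p = 0.00120, edgeR). The Taz-KO mean of 0.540 CPM was below the 1.02 CPM of fibroblast-like nuclei of the same mice, while the WT mean of 4.38 CPM was above the 1.28 CPM there. With thinned nuclei the call was kept in ventricular-like nuclei but lost in all cardiomyocyte-like nuclei together (log2 fold change -1.03 against -2.48 unthinned, adjusted p = 0.132, edgeR).

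Several measures of these nuclei differed between the mice and are set beside the lower levels. The 7 ventricular-like clusters were shared unequally, with WT nuclei making up 67.6% of cluster 4 and 72.3% of cluster 7, the 2 with the most nuclei, but 20.5% of cluster 11 and 4.22% of cluster 20. Within each of the 7 clusters, compared after the shares were seen, the mean over Taz-KO mice was below that over WT mice for Kcnd2 (31.6% to 52.9% of WT), Kcnj2 (28.7% to 56.1%), Kcnj3 (19.5% to 44.7%), Kcnq1 (48.9% to 70.8%), Kcnn2 (40.5% to 86.4%) and Hcn4 (8.48% to 24.0%). Kcnd3 and Kcnh2 were lower in 6 of the 7 clusters and Kcnip2 in 2 of them. The share of all genes lower in every cluster is not given, so nothing is read from these counts. Some of these means rest on few nuclei, as cluster 20 held 69 WT nuclei, 10 to 28 per mouse. Taz-KO mice 4685 and 5301 gave only 30 and 38 nuclei in cluster 4. In cluster 22 mouse 5301, with 10 nuclei, gave Kcnd3 at 528 CPM. In cluster 23 it gave Kcnip2 at 323 CPM and Kcnh2 at 50.2 CPM, from 11 nuclei. Cluster 22 gave values for 3 mice per genotype, and cluster 23 for 4 WT and 3 Taz-KO mice. Hcn4 was at 0 CPM in some mice of these clusters, WT mouse 4909 in cluster 20 among them. Median UMIs per ventricular-like nucleus ranged from 6981.5 to 24770.0 over mice, with the highest value in Taz-KO mouse 4685, which gave only 164 such nuclei. The atrial markers Nppa (51.5, 215, 262 and 36.8 CPM in WT and 82.7, 166, 146 and 22.9 CPM in Taz-KO mice) and Myl7 (log2 fold change -0.23, adjusted p = 0.876, edgeR) did not separate the genotypes in these nuclei. The share of atrial-like among cardiomyocyte-like nuclei was 1.86% ± 0.805 in WT and 2.41% ± 1.09 in Taz-KO mice (SD, n = 4 each, exact two-sided permutation test, p = 0.429). The cardiomyocyte genes Ttn (log2 fold change -0.31, adjusted p = 0.581), Ryr2 (-0.29, adjusted p = 0.512) and Myh6 (-0.29, adjusted p = 0.523) did not pass the test in these nuclei.

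The share of cardiomyocyte-like nuclei with at least 1 UMI of a gene was compared after each nucleus had been thinned to 1000 UMIs, which left out 59 Taz-KO nuclei. A share of 79.8% ± 1.86 in WT and 50.2% ± 7.12 in Taz-KO mice held Kcnd2 (SD, n = 4 each), and 43.4% ± 6.20 and 14.8% ± 4.92 held Kcnj3. For Kcnq1 the thinned share was 24.2% in WT and 14.3% in Taz-KO mice, for Kcnj2 4.09% and 1.51%, and for Hcn4 0.481% and 0.0570%. For each of these genes the exact two-sided permutation test gave p = 0.0286, the smallest that 4 against 4 mice allow, or 0.0771 adjusted over 27 tests. Without thinning the shares were 98.6% and 85.7% for Kcnd2, 92.7% and 54.2% for Kcnj3, 37.0% and 16.8% for Kcnj2 and 5.01% and 0.641% for Hcn4, with the same exact p. The unthinned shares of 85.6% and 68.0% for Kcnq1 were not separate (exact permutation test, p = 0.114). For Kcnn2 the shares were 53.7% and 33.6% (exact permutation test, p = 0.0571), and for Kcnip2 10.2% and 11.3% (p = 0.514, exact permutation test). Fibroblast-like nuclei, where Kcnd2 and Kcnj3 were at 0.514 to 1.40 and 0.772 to 1.75 times what RNA of cardiomyocytes would carry in WT mice, judged by Ttn and Ryr2, gave 26.2% for Kcnd2 and 10.1% for Kcnj3 in WT mice and 11.5% and 4.68% in Taz-KO mice at the same thinned depth, below the share of cardiomyocyte-like nuclei of the same genotype in each case. Before thinning, the median per mouse was 2791.0 to 6347.0 UMIs in fibroblast-like nuclei. The Hcn4 share of Taz-KO cardiomyocyte-like nuclei, which include the conduction-like ones, did not exceed the 0.222% ± 0.254 of fibroblast-like nuclei of those mice (SD, n = 4).

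In atrial cardiomyocyte-like nuclei 8 of the 9 genes could be tested and none passed in edgeR, where 0.705% of 9078 genes did. Of the 8, 3 had an unadjusted p under 0.05, a count from which nothing is read, since the share of all genes is not given. DESeq2 called 1, Kcnd2 (adjusted p = 0.00453), where it called 0.515% of all genes. With RLE size factors (adjusted p = 0.0469) or no filter on low counts (adjusted p = 0.000566), edgeR called Kcnd2 too. Taz-KO mouse 4685, with 5 such nuclei, was left out, and the other 7 mice had 12 (Taz-KO mouse 5301) to 256 (Taz-KO mouse 4910). In atrial-like nuclei Kcnd2 gave 1769.6, 1205, 1452 and 1955 CPM in WT, against 802, 653 and 514 CPM in Taz-KO mice 4910, 5300 and 5301. The groups did not overlap (5.53% of all genes tested had every Taz-KO mouse below every WT mouse), and the log2 fold change was -1.33 (SE 0.29, adjusted p = 0.0534, edgeR). Kcnq1, at 344, 287, 328 and 450.3 CPM in WT and 222, 196 and 95.2 CPM in Taz-KO mice, also had no overlap (log2 fold change -0.98, adjusted p = 0.191, edgeR). For the others tested, log2 fold changes ran from -0.68 for Kcnn2 to -0.0031 for Kcnip2, and the median over the 8 genes was -0.67 against -0.03 over all genes. An unnamed cluster of 352 nuclei, 121 of them from WT mice, was led by atrial genes such as Myl4, Myl7 and Sln and had Kcnj3 at 1755 CPM over all mice, and is not part of the atrial-like nuclei. Hcn4 was not tested in these, since its 15 UMIs, 11 of them from Taz-KO mouse 4910, did not pass the filter on low counts.

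**Figure D2:**
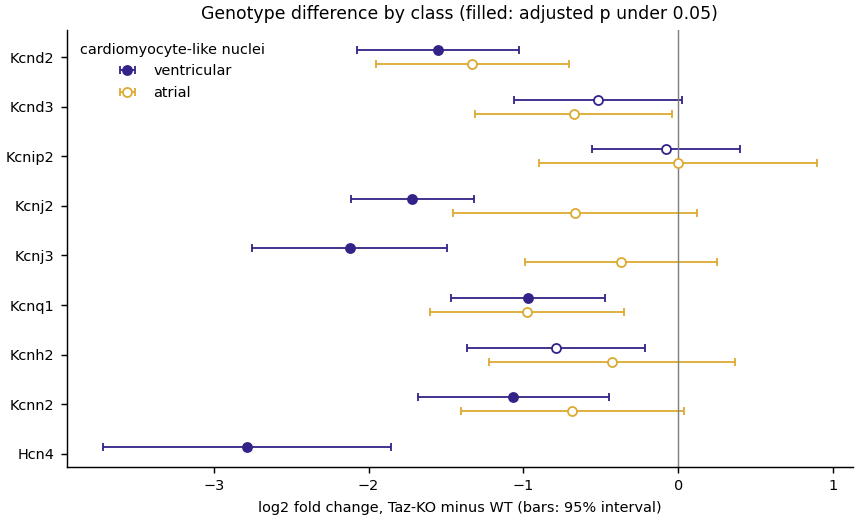
Log2 fold change, Taz-KO minus WT, with its 95% interval in ventricular (4 WT and 4 Taz-KO mice) and atrial (4 WT and 3 Taz-KO mice) cardiomyocyte-like nuclei, with filled points at an adjusted p under 0.05. Filled points are those of 6 genes in ventricular-like nuclei, and for Kcnj3 the intervals of the classes do not overlap, at -2.12 in ventricular-like and -0.37 in atrial-like nuclei.

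In atrial-like nuclei Kcnj3 gave 5072, 4693, 4368 and 5298 CPM in WT, against 5139.7, 2527 and 4149.5 CPM in the 3 Taz-KO mice, groups that overlapped (log2 fold change -0.37, 95% interval -0.99 to 0.25, adjusted p = 0.801, edgeR). Whether the genotype effect differed between the classes was tested within mice, with the mouse as a term. For Kcnj3 the effect in atrial-like minus that in ventricular-like nuclei was 1.71 on the log2 scale (SE 0.15, adjusted p = 3.69e-25, edgeR). That fit shared 1 estimate of the spread over all genes, on which this p rests, and 2.41% of 15420 genes passed it. The ratio of the atrial-like to the ventricular-like level of Kcnj3 was 8.10, 6.50, 9.10 and 6.79 in the WT mice and 22.6, 20.4 and 36.5 in the Taz-KO mice. These ratios did not overlap, and their exact two-sided permutation test gave p = 0.0571, the smallest that 4 against 3 mice allow. For Kcnd2 the same ratio was 0.548 ± 0.0950 in WT and 0.554 ± 0.0748 in Taz-KO mice (SD, n = 4 and 3), and its interaction was 0.10 (95% interval -0.22 to 0.42, adjusted p = 0.902, edgeR). For Hcn4, which was too sparse to be tested in atrial-like nuclei alone, no difference between the classes is read from this fit, since its value of 3.75 turned to -5.11 without Taz-KO mouse 4910 (adjusted p = 0.938, edgeR).

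**Figure D3:**
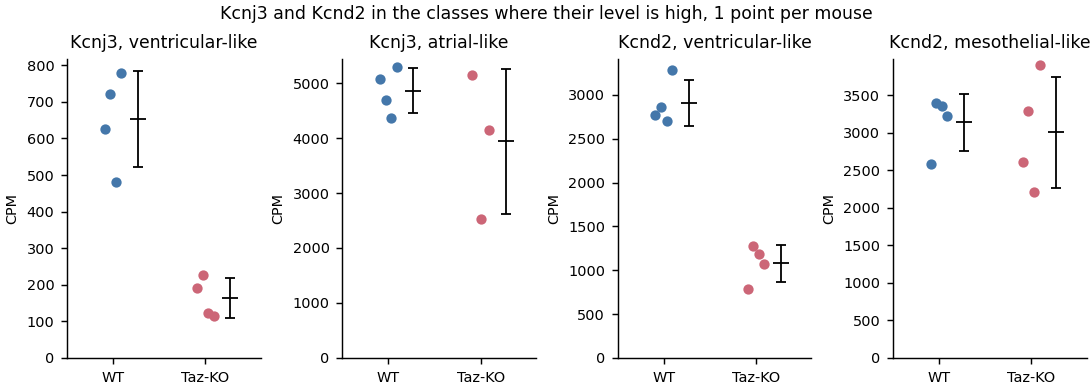
Level of Kcnj3 in ventricular-like and atrial-like nuclei and of Kcnd2 in ventricular-like and mesothelial-like nuclei in CPM, with 1 point per mouse, the mean and 1 SD. Kcnj3 overlaps between genotypes in atrial-like nuclei (4368 to 5298 CPM in WT, 2527 to 5139.7 CPM in Taz-KO) and Kcnd2 in mesothelial-like nuclei (2584 to 3398 and 2215 to 3899 CPM), while both are separate in ventricular-like nuclei.

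Across the classes of WT mice the 9 genes had different orders, given here as levels in CPM of 1 gene at a time and with no test, since the classes come from the same nuclei. Kcnj3 was highest in atrial-like nuclei (4858 ± 411 CPM, SD, n = 4), above conduction-like (708, 2 mice) and ventricular-like nuclei (652 ± 131), whose ranges overlapped. Kcnip2 was highest in ventricular-like nuclei (122 ± 19.2), with atrial-like nuclei next (29.6 ± 8.64) and within the range of the classes after them. Hcn4 was highest in conduction-like nuclei, at 101 and 142 CPM in WT mice 4909 and 5355 and 159 CPM in Taz-KO mouse 4910, the 3 mice with at least 10 such nuclei. With the mice of both genotypes pooled and nuclei not thinned, at least 1 UMI of Hcn4 was found in 33 of the 81 conduction-like nuclei (40.7%). The pooled share was 3.17% of ventricular-like, 0.638% of fibroblast-like and 0.566% of endothelial-like nuclei, classes that differ in UMIs per nucleus. Of the conduction-like nuclei 34 came from WT mice. In ventricular-like nuclei the mean unthinned share was 4.98% in WT and 0.544% in Taz-KO mice. Cntn2, a marker of Purkinje cells, was among the leading genes of the conduction-like cluster. Kcnh2 (58.8 ± 20.2 in atrial-like nuclei) and Kcnq1 (352 ± 69.6 in atrial-like, 294 ± 43.8 in ventricular-like nuclei) did not separate the highest classes beyond their ranges. Likewise Kcnn2 (994 ± 220 in conduction-like, 918 ± 196 in ventricular-like and 872 ± 267 in atrial-like nuclei) and Kcnd3 (424 ± 80.7 in ventricular-like and 352 ± 84.1 in atrial-like nuclei) overlapped between these classes. Kcnj2 was at 47.5 ± 12.5 in conduction-like and 42.8 ± 4.86 in ventricular-like nuclei, with B lymphocyte-like nuclei at 37.4 ± 17.6 and within their range.

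Kcnd2 was highest in mesothelial-like nuclei (3142 ± 379 CPM in WT mice, SD, n = 4), followed by ventricular-like nuclei (2904 ± 262), with ranges that overlapped, and by atrial-like nuclei (1595 ± 333), whose range lay below both. The mesothelial-like nuclei, a single cluster of 2714 nuclei from all 8 mice, were led by Muc16, and their marker Wt1 was at 521 CPM in WT against 3.57 CPM in ventricular-like nuclei. From the Ttn and Ryr2 UMIs of the same nuclei, RNA of cardiomyocytes would carry 315 (Ttn) or 251 (Ryr2) CPM of Kcnd2, and the measured level was 8.13 to 17.2 times that in single WT mice. Kcnj3 (0.976 to 1.64 times) and Kcnn2 (0.442 to 1.22 times) were near that level in the same nuclei. Kcnd3 was above it in smooth muscle-like (2.94 to 4.77 times) and mesothelial-like nuclei (2.17 to 5.29 times). Kcnj2 was at 2.38 times it or more in each WT mouse in fibroblast-, endothelial-, lymphatic endothelial-, macrophage-, mesothelial-, pericyte- and B lymphocyte-like nuclei. The sparse Kcnh2 and Hcn4 were also above it in fibroblast-like nuclei (1.34 to 2.91 and 1.17 to 3.75 times) and in endothelial-like nuclei. In mesothelial- and pericyte-like nuclei their ranges reached below it. Myl2, unlike Ttn, was not lower in fibroblast-like than in ventricular-like nuclei, so this measure may not hold for every cardiomyocyte transcript. Whether these other classes express Kcnj2 was not tested.

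**Figure D4:**
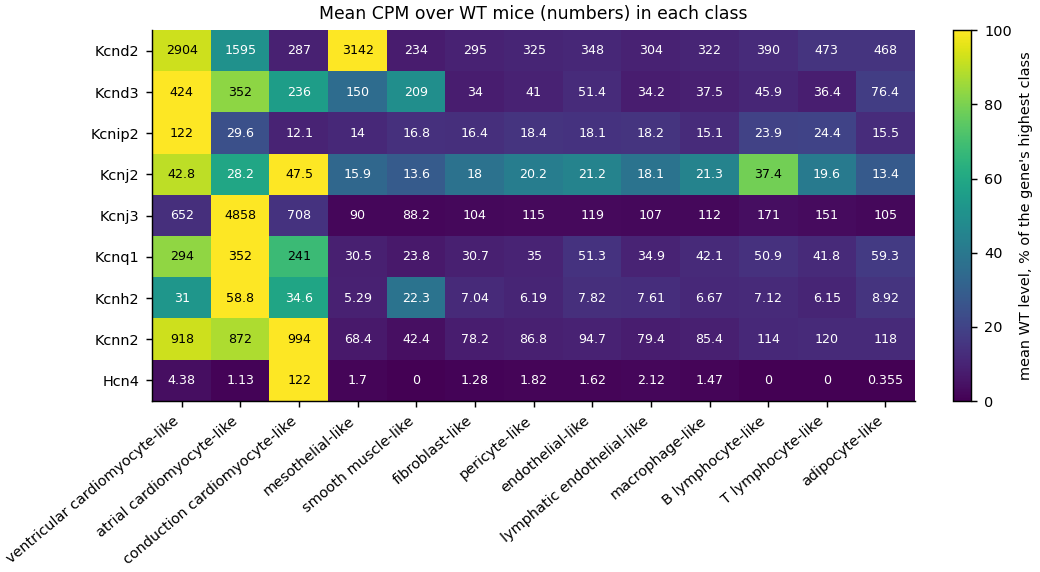
Mean level over WT mice of each gene (rows) in each class of nuclei (columns), with the number in CPM and the colour as a percent of the highest class of that gene. Kcnd2 is high in ventricular-like (2904 CPM) and mesothelial-like nuclei (3142 CPM), Kcnj3 in atrial-like nuclei (4858 CPM), Kcnip2 in ventricular-like nuclei (122 CPM) and Hcn4 in conduction-like nuclei (122 CPM).

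Likeness of pattern was described by Pearson's correlation of log2(CPM + 1) over the mean levels of 15 classes, for 18393 genes, with no test, since the classes share libraries and free RNA. Kcnj3 was most like Chrm2, Gm35041 and Kif6 (r = 0.973 to 0.952), of which Chrm2 encodes the muscarinic receptor that opens the acetylcholine-gated channel. For Kcnd2 the 3 genes were Ctrc, Prlr and Mucl2 (r = 0.932 to 0.910), and for Kcnd3 they were Cacnb2, Myocd and Rcan2 (r = 0.932 to 0.911). Kcnip2 was most like Gm10069, Asb10 and Sars2 (r = 0.882 to 0.875) and Kcnj2 most like Car14, Narf and Lmod3 (r = 0.891 to 0.853). The genes nearest to Kcnq1 were Mhrt, Clasp1 and Gm36037 (r = 0.974 to 0.968), where Mhrt is a cardiac antisense transcript of the Myh7 locus. Kcnh2 was nearest to Zfp385b, Spsb4 and Crhr2 (r = 0.990 to 0.961), Kcnn2 to Trim55, Asb18 and Palld (r = 0.985 to 0.981) and Hcn4 to Gm16863, A830009L08Rik and 4930414F18Rik (r = 0.955 to 0.936). Means of conduction-, dendritic- and Schwann-like nuclei rest on 2 WT mice each, and values near 0 there can move r for sparse genes. Kcnh2 was at 0 CPM in dendritic-like and Kcnip2 in Schwann-like nuclei, and the 7.84 CPM of Hcn4 in Schwann-like nuclei came from 2 UMIs.

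In mesothelial-like nuclei Kcnd2 gave 2584, 3398, 3360.3 and 3223 CPM in WT, against 2614, 3294, 2215 and 3899 CPM in Taz-KO mice. These ranges overlapped, and the log2 fold change was -0.09 (95% interval -0.58 to 0.40, adjusted p = 1.00, edgeR). The genotype effect in mesothelial-like minus that in ventricular-like nuclei, compared after the level had been seen, was 1.39 (SE 0.22, adjusted p = 0.00338, edgeR, where 3.26% of 15024 genes passed). As a ratio, Kcnd2 in mesothelial-like nuclei was 0.934, 1.19, 1.24 and 0.982 times its ventricular-like level in the WT mice and 3.33, 2.59, 1.87 and 3.65 times in the Taz-KO mice, with no overlap (exact two-sided permutation test, p = 0.0286, the smallest possible). Of the 9 genes 7 could be tested in mesothelial-like nuclei and none passed in edgeR, where 0.0567% of all genes did (0.280% with DESeq2). None passed in 7 other classes either, where 9 were tested in endothelial- and fibroblast-like, 8 in lymphatic endothelial-, macrophage- and pericyte-like, 6 in adipocyte-like and 3 in B lymphocyte-like nuclei. Over all genes these were called in 0.00% for adipocyte-like, 0.0548% for B lymphocyte-like, 0.506% for endothelial-like, 0.400% for fibroblast-like, 0.0819% for lymphatic endothelial-like, 0.355% for macrophage-like and 0.105% for pericyte-like nuclei. Of the genes tested, 1 to 5 per class had an unadjusted p under 0.05. The share of all genes under that limit is not given, so nothing is read from these counts. In lymphatic endothelial-like nuclei edgeR called Kcnd2 as lower without Taz-KO mouse 5301 (adjusted p = 0.0484) or WT mouse 5356 (adjusted p = 0.0311). Log2 fold changes of Kcnd2 in the 7 classes ran from -1.80 in adipocyte-like to -0.83 in B lymphocyte-like nuclei, and DESeq2 called Kcnd2 as lower in 6 of them and Kcnq1 in fibroblast-like nuclei. DESeq2 called 0.145%, 0.0447%, 1.37%, 1.73%, 0.206%, 1.85% and 0.277% of all genes in the same order of classes. Kcnj3 ran from -1.26 to -0.98, mesothelial-like nuclei included. In WT mice the Kcnd2 level of these classes was 0.433 to 1.44 times what RNA of cardiomyocytes would carry, and how much of these differences comes with that RNA was not tested.

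Of the other channel and pump genes, 76 listed names are reported, of which 75 were in the files and 63 could be tested in ventricular-like nuclei. The call was made for 5 of the 63 as lower and 6 as higher, which is 17.5% against 16.0% of all genes tested, and the median log2 fold change was -0.07 against -0.02. The pacemaker channel gene Hcn2 rose from 8.74 ± 0.771 to 17.1 ± 1.21 CPM (SD, n = 4 each, adjusted p = 0.00948, edgeR). Of the inward rectifiers, 1 fell and 2 rose of the 5 tested. Kcnj12, the Kir2.2 partner of Kcnj2, fell 2.42-fold (adjusted p = 0.00828, edgeR), Kcnj4, or Kir2.3, rose from 0.162 ± 0.0288 to 1.90 ± 0.403 CPM, a low level, and Kcnj6 rose 3.34-fold. Among 16 delayed rectifier genes reported Kcnv2 fell (log2 fold change -1.88) and Kcnc1, Kcnq5 and Kcnh7 rose (2.05, 1.12 and 0.93), where Kcnh7 did not pass when all cardiomyocyte-like nuclei were tested together (adjusted p = 0.226, with 15.7% of all genes called). The 14 sodium channel genes reported held 3 that fell and none that rose. The 3 were Fgf14, a cytosolic partner of sodium channels (from 577 ± 122 to 116 ± 14.4 CPM), Scn4a, the skeletal muscle channel (from 15.2 ± 5.17 to 1.02 ± 0.444 CPM) and the accessory subunit Scn4b (log2 fold change -2.58). DESeq2 called 1 more as lower, Fgf13, named after its values were seen (from 4259 ± 589 to 2831 ± 448 CPM, adjusted p = 0.0246 in DESeq2 and 0.0849 in edgeR). None passed of 7 other transient outward genes, 4 ATP-sensitive, 5 two-pore and 7 calcium- or sodium-activated channel genes, of which DESeq2 called 1 of the last group as higher. In atrial-like nuclei none of the 24 listed genes reported passed, where 0.705% of 9078 genes did.

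**Figure D5:**
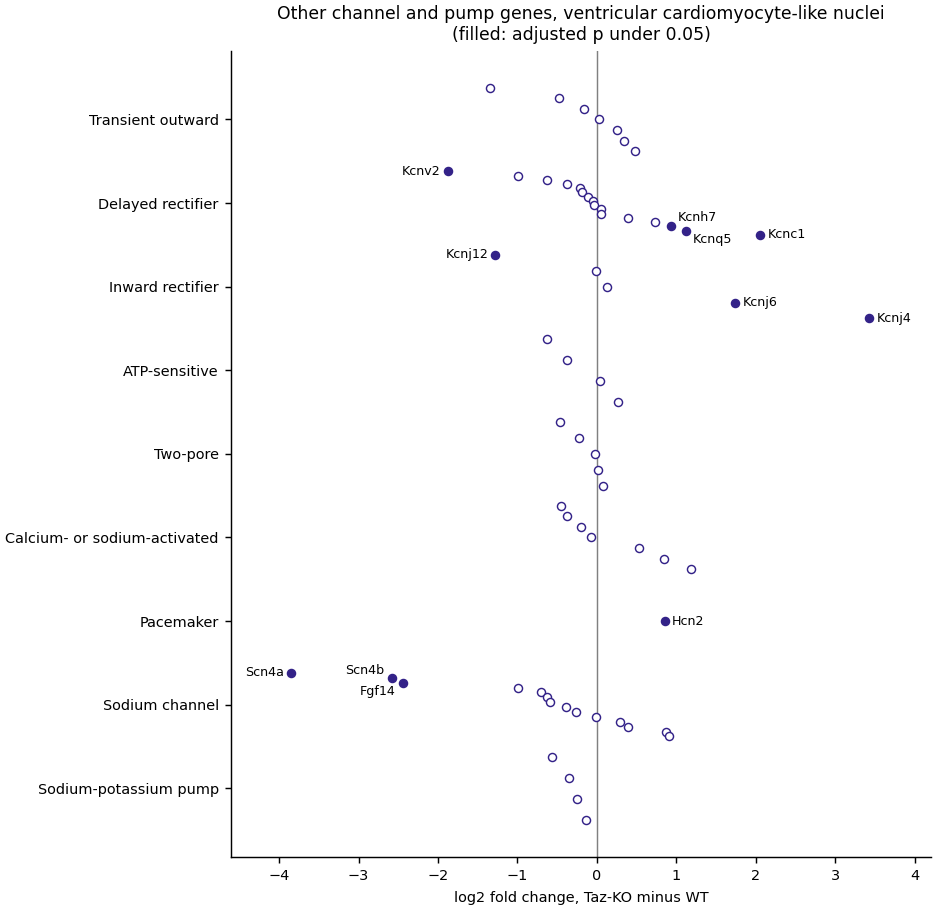
Log2 fold change, Taz-KO minus WT, of the 63 other channel and pump genes reported in ventricular cardiomyocyte-like nuclei (4 mice per genotype), 1 point per gene, in rows by role, with filled and named points at an adjusted p under 0.05. The 5 filled points on the left and the 6 on the right come from 4 of the 9 roles.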

How the data were processed

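RNA of single nuclei was measured in hearts of male mice, 4 per genotype, and each mouse gave 1 library and counted as 1 replicate. The files as deposited by the authors hold unnormalized UMI counts of called barcodes, from Cell Ranger 6.0.1 (mm10, introns counted), before their own steps against ambient RNA and doublets. Labels give no separate batches, and mice carry no numbers shared between genotypes.

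Barcodes with at least 800 non-mitochondrial UMIs and 250 genes were kept, and the highest-scoring 0.8% per 1000, at most 10%, were removed as doublets. Clustering (2000 variable genes without channel and mitochondrial genes, 15 components, Harmony's algorithm rewritten, 20 neighbours, Leiden at resolution 0.9) used Python 3.11.15, numpy 2.4.6, scipy 1.17.1, scikit-learn 1.9.0 and python-igraph 0.11.9. Clusters were named from marker scores, with a rule set after the scores had been seen, so names stand for marker-based likeness. The authors' own annotation of nuclei was not used here.

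Sums of counts were made per mouse and class (at least 10 nuclei per mouse, 3 mice per genotype) and were fitted with edgeR 4.0.16 in R 4.3.3 (TMM, filterByExpr, robust quasi-likelihood), with Benjamini-Hochberg adjustment over all genes of a class and a call at 0.05. CPM are raw counts per 1000000 of the class before TMM. Differences between classes were fitted with the mouse as a term. DESeq2 1.42.0 was the other tool. Single values were compared by exact permutation over mice. The edgeR test of genotype was run on simulated counts with known changes. Alternatives were other size factors, no filter, each mouse left out, other clusterings, thinned nuclei, ambient RNA subtracted, low-mitochondrial nuclei and nuclei picked by Ryr2 and Ttn. Ambient RNA was not measured in empty droplets. Its profile was taken from the share of 0.1 of called barcodes with the fewest UMIs in each library. A fixed share of 0.2 of the UMIs was subtracted with this profile. The smallest barcode of a library held 500 to 6522 UMIs, so the profile may include RNA of nuclei. Counting intervals and thinning cover counting error only.

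Named are the 9 genes, Taz and the other listed channel genes past the call, up to 5 per direction and role, and for each of the 9 the 3 genes most like it over classes. Some listed genes are not reported here, and counts over the lists leave them out. Members and lists were chosen with earlier results of these data known, and Kcnj5, Kcnq1ot1, Ttn, Ryr2, Myh6 and the comparison of mesothelial-like nuclei were singled out after values had been seen.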

Additional observations from a re-analysis of the deposited data

Results flagged for a closer look

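Single mice stood apart from the others of their group in 3 of 34 groups checked, where chance gives about 1 in 20. Kcnn2 in ventricular cardiomyocyte-like nuclei was highest in Taz-KO mouse 4910, at 694 CPM, above the other 3 Taz-KO mice. Kcnip2 in atrial-like nuclei was highest in WT mouse 4909, at 42.5 CPM, and Taz there was lowest in WT mouse 4686, at 32.9 CPM, the WT mouse with the fewest atrial-like nuclei (28).

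Genotype effects differed between classes of the same mice for Kcnj3 and Kcnd2, on the log2 scale and by edgeR's interaction test. The effect in atrial-like minus that in ventricular-like nuclei was 1.71 for Kcnj3. For Kcnd2 the effect in mesothelial-like minus that in ventricular-like nuclei was 1.39. The fit also gave 3.75 for Hcn4 in atrial-like minus ventricular-like nuclei, but that value rested on Taz-KO mouse 4910, which gave 11 of the 15 Hcn4 UMIs of atrial-like nuclei, and was -5.11 without it, so no difference is read from it.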

How the results depend on the processing

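In ventricular cardiomyocyte-like nuclei Kcnd2, Kcnj2, Kcnj3 and Hcn4 kept their direction and their call under all 18 alternatives run, and the number of the 9 genes called lower was 4 to 7, the lowest without Taz-KO mice 4685 and 5301. In all cardiomyocyte-like nuclei together Hcn4 was no longer called once nuclei were thinned (-1.03, adjusted p = 0.132). In ventricular-like nuclei without Taz-KO mice 4685 and 5301, Kcnn2 (-0.92, adjusted p = 0.159) and Kcnq1 (-0.92, adjusted p = 0.0908) were no longer called. The same held in all cardiomyocyte-like nuclei (-0.95, adjusted p = 0.163, and -0.95, adjusted p = 0.0947). There Kcnn2 also lost its call in 6 of 8 fits with 1 mouse left out. The cause was not tested. With 1 mouse left out, Kcnn2 in ventricular-like nuclei ranged from -1.31 to -0.89 and Kcnh2 from -0.99 to -0.64, with Kcnh2 called without WT mouse 5355. Kcnh2 was also called by DESeq2 (-0.83, adjusted p = 0.0343), with no filter on low counts (-0.82, adjusted p = 0.0470) and in nuclei under 5% mitochondrial UMIs (-0.87, adjusted p = 0.0393). Taz in cardiomyocyte-like nuclei was -0.59 (adjusted p = 0.0839) with ambient RNA subtracted, and ranged from -0.74 to -0.49 with 1 mouse left out, where its call was lost in 4 of 8 cases. In atrial-like nuclei the number of the 9 genes called lower was 1 with DESeq2, 1 with RLE size factors and 1 with no filter, Kcnd2 each time.

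Some values changed sign. With 1 mouse left out, Kcnip2 ranged from -0.20 to 0.11 in ventricular-like and in all cardiomyocyte-like nuclei, from -0.63 to 0.21 in atrial-like, -0.14 to 0.57 in adipocyte-like, -0.17 to 0.15 in endothelial-like and -0.24 to 0.21 in mesothelial-like nuclei. It was 0.0093 in atrial-like nuclei with no filter and 0.057 at resolution 0.5. Kcnh2 ranged likewise from -0.74 to 0.064 in atrial-like, -0.22 to 0.22 in endothelial-like, -0.31 to 0.14 in fibroblast-like and -0.067 to 0.42 in lymphatic endothelial-like nuclei, and was -0.060 in endothelial-like nuclei with DESeq2 and 0.027 in fibroblast-like nuclei with ambient RNA subtracted. Kcnd2 in mesothelial-like nuclei ranged from -0.29 to 0.032. For the interaction of atrial-like and ventricular-like nuclei the range was -5.11 to 4.24 for Hcn4. The difference in the share of nuclei with Kcnip2 was -0.57 percentage points at 2000 UMIs and -4.00 without thinning, against 1.11 at 1000.

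No paired analysis was run, because the labels do not say what the mouse numbers mark and WT and Taz-KO mice share none of them. Both shallow libraries are Taz-KO, atrial-like nuclei numbered 12 to 256 per mouse tested, and the comparisons rest on at most 4 against 4 mice.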
